A study of Mus musculus with 6 samples.

Results

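Selenoproteins are proteins that carry selenocysteine, the amino acid in which selenium takes the place of sulfur, and serum is the usual source of selenium for cells in culture. The genes described here are 10 mouse selenoprotein genes, found by their names among the 38776 named genes of a table of read counts: Gpx1, Gpx3, Gpx4, Txnrd1, Txnrd2, Sepw1, Selk, Selm, Sepp1 and Sephs2. These are the older symbols that the table uses; Sepw1, Selk, Selm and Sepp1 are now called Selenow, Selenok, Selenom and Selenop. They were picked out by name, by a rule that uses no measured value, although earlier results of these data were known when the list was made. All 10 genes had counts and passed the filter on low counts, but Gpx3 had only 22, 12 and 11 counts in unstarved and 16, 4 and 4 counts in starved cells.

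RNA was sequenced from 661W cells, an immortalized line from the retinal tumor of a mouse that expressed SV40 T antigen, which is used as a model of cone photoreceptors. Unstarved cells had been seeded in high-glucose DMEM with 10% fetal calf serum, given the same fresh medium after 48 h and grown for 72 h more. Starved cells were treated alike, except that the medium given after 48 h held no serum. Each condition was grown from passages 24, 26 and 27 of this single line, which gave 3 libraries per condition and 6 in all. The selenium in the media was not measured, and serum withdrawal removed growth factors, lipids and hormones together with any selenium in serum, so their parts cannot be told apart.

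The libraries held 71970076 to 87178722 counts, and 3 counts stood for 0.0344 to 0.0417 CPM, where CPM is a gene's count divided by the library total and multiplied by 1e6. The label of the line was checked against 13 cone genes. Arr3 and Rxrg had no count, 11 of the 13 averaged under 1 CPM, and their summed level was 2.46 to 4.31 CPM in unstarved and 2.99 to 3.42 CPM in starved cells. On the leading principal component, which held 57.8% of the variance, the library of passage 24 had the lowest score in both conditions. Summed over 8 cycling genes, the levels were 1826 to 2023 CPM in unstarved and 1792 to 1882 CPM in starved cells, and 0 of the 8 passed the test of change described below, with 0 at an unadjusted p under 0.05 and 0 by DESeq2. In RNA from whole cultures, fewer cells of a type and less RNA per cell cannot be told apart.

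Selenocysteine is encoded by UGA, which otherwise ends translation. A hairpin in the 3′ part of the messenger, the SECIS element, recruits a binding protein, a dedicated elongation factor and a charged selenocysteine tRNA to read that codon through. When selenium is scarce, ribosomes can stop at the codon, and messengers in which it lies well before the last exon junction can then be degraded by nonsense-mediated decay. In mammalian cells the messengers of Gpx1 and Sepw1 are known as highly sensitive to selenium supply, whereas Gpx4 and the thioredoxin reductases are usually described as more resistant.

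The codon at issue is shown for 6 of the genes, since they differ in its place in the messenger. Each sequence runs 5′ to 3′ on the coding strand, was read from GENCODE M21 transcripts on GRCm38, and has the selenocysteine codon in capitals within up to 12 bases on either side.
Gpx1: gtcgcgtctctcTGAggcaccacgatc
Gpx4: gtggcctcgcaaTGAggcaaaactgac
Sepw1: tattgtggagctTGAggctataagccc
Sepp1: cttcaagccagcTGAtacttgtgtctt
Selk: atggctggtggaTGAggaaggtaa
Txnrd1: cagtctggctgcTGAggttaa
In Gpx1 the codon lay at chr9:108339451-108339453, in exon 1 of 2 and 108 bases before the last exon junction. In Gpx4 it lay at chr10:80054737-80054739, in exon 3 of 7 and 345 bases before that junction, and in Sepw1 at chr7:15920464-15920466 on the minus strand, 246 bases before it. Sepp1 has 10 such codons, of which the first, shown above, lay at chr15:3274848-3274850 and 360 bases before the last junction. Selk and Txnrd1 carry theirs at the other end of the protein. In Selk it was codon 92 of 94, at chr14:29973440-29973442 and 8 bases before the last junction, and in Txnrd1 codon 498 of 499, at chr10:82896037-82896039, in the last exon. For both of these the printed window ends with the stop codon.

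Among the 10 genes, 1 rose and 1 fell upon starvation at an adjusted p under 0.05, and 0 did at 0.01. These counts are from edgeR, whereas the study used the 0.01 level with DESeq2. The genes were read from 1 fit of edgeR's quasi-likelihood test over 16168 genes, with the passage as a block and Benjamini-Hochberg adjustment over all of them, and log2 fold changes are starved over unstarved with their standard error (SE). Of all genes tested, 5.07% were called at 0.05 (3.48% of all genes higher and 1.60% lower), and 0.847% were called at 0.01 (0.118% lower and 0.730% higher). At an unadjusted p under 0.05, 2 of the 10 genes were higher and 4 lower, against 13.1% and 11.1% of all genes. The median log2 fold change was −0.21 over the 10 genes and −0.001 over all genes tested. The count of calls depended on the passages and the model. Without passage 24, 26 or 27, 5, 0 and 0 of the 10 genes passed, beside 8.60%, 2.74% and 2.12% of all genes, and without the passage as a block 0 passed, beside 0.0247%. DESeq2 with the block called 5 of the 10, beside 12.4% of all genes. At 0.01 it called 1170 genes in all, against 137 with edgeR. Gpx1, Gpx4, Sepw1 and Sepp1 each had an adjusted p under 0.01 in at least 1 of the 11 alternative settings given below.

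**Figure D1:**
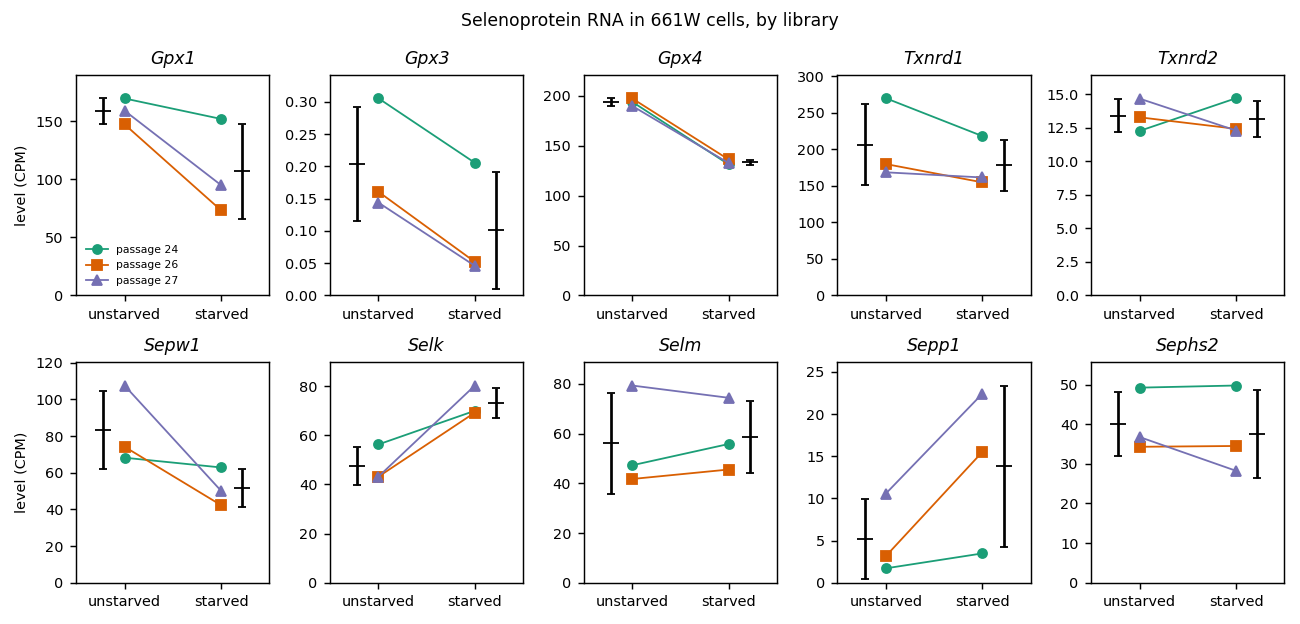
Level of each of the 10 selenoprotein genes in CPM in unstarved and starved 661W cells. Colored symbols are libraries, lines join the libraries of 1 passage, and black marks give the mean and SD over 3 libraries. The starved libraries of Gpx4 lie at 131 to 136 CPM, all below the unstarved ones at 190.0 to 197 CPM, while Sepp1 is higher in starved cells in each passage although its groups overlap.

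Of the glutathione peroxidases, which use glutathione to reduce peroxides, Gpx4 fell. It is the enzyme that reduces peroxidized lipids within membranes and guards cells against ferroptosis. Its level was 194, 197 and 190.0 CPM in unstarved cells of passages 24, 26 and 27, and 131, 136 and 133 CPM in starved cells of the same passages. The starved libraries were all below the unstarved ones, and starved cells held 67.7%, 69.0% and 69.8% of the level of their own passage. The log2 fold change was −0.60 (SE 0.11, adjusted p = 0.0328, edgeR's quasi-likelihood test). Without passage 26 the adjusted p was 0.100 and without passage 27 it was 0.123, with log2 fold changes of −0.58 and −0.61. The annotation names 1 Gpx4 pseudogene, and reads common to both could not be assigned with certainty.

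Gpx1, the abundant peroxidase of cytosol and mitochondria, stood at 169.6, 147 and 159 CPM in unstarved and at 152, 73.3 and 95 CPM in starved cells. Starved cells were lower in each passage, but the starved library of passage 24 was above the unstarved one of passage 26. The log2 fold change of −0.69 (SE 0.17) did not pass the test (adjusted p = 0.0637, edgeR's quasi-likelihood test). Without passage 24, Gpx1 passed it at an adjusted p of 0.0183 and a log2 fold change of −0.92. Gpx3, the peroxidase secreted into plasma, was near the limit of the data, at 0.306, 0.161 and 0.144 CPM in unstarved and 0.206, 0.0520 and 0.0459 CPM in starved cells. Its log2 fold change was −1.19 (SE 0.47, adjusted p = 0.177, edgeR's quasi-likelihood test), and it entered the test through its higher libraries.

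The thioredoxin reductases, which use NADPH to keep thioredoxin reduced, did not pass the test. Txnrd1, the cytosolic enzyme, stood at 269.9, 179.8 and 168 CPM in unstarved and at 218, 155 and 161 CPM in starved cells. It was lower in starved cells of each passage, by less than the passages differed among themselves, with a log2 fold change of −0.25 (SE 0.12, adjusted p = 0.254, edgeR's quasi-likelihood test). Txnrd2, the mitochondrial enzyme, was at 12.3, 13.3 and 14.7 CPM in unstarved and 14.7, 12.4 and 12.3 CPM in starved cells. It was higher in passage 24 and lower in the other two, with a log2 fold change of −0.09 (SE 0.18, adjusted p = 0.806, edgeR's quasi-likelihood test).

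Sepw1, Selm and Selk encode small selenoproteins. Sepw1, a cytosolic protein with a thioredoxin-like fold, was at 68.2, 74.2 and 108 CPM in unstarved and 62.9, 42.3 and 50.1 CPM in starved cells. All starved libraries were below all unstarved ones, with little difference in passage 24, where starved cells held 92.2% of the unstarved level, and the widest in passage 27, where they held 46.6%. The log2 fold change was −0.73 (SE 0.19, adjusted p = 0.0688, edgeR's quasi-likelihood test), and without passage 24 it was −1.0 at an adjusted p of 0.0157. Selk, a membrane protein of the endoplasmic reticulum, went the other way, at 56.3, 43.1 and 43.1 CPM in unstarved and 70.0, 69.3 and 80.3 CPM in starved cells. Its starved libraries were all above its unstarved ones, with a log2 fold change of 0.58 (SE 0.15) that did not pass the test (adjusted p = 0.0652, edgeR's quasi-likelihood test). It passed without passage 24 at 0.0329. The annotation names 6 Selk pseudogenes, and reads that these share with Selk could not be assigned with certainty.

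Selm, a protein of the endoplasmic reticulum with a thioredoxin-like fold, was at 47.2, 41.7 and 79.3 CPM in unstarved and 55.8, 45.5 and 74.4 CPM in starved cells. Both groups spanned the same range, and the log2 fold change was 0.03 (SE 0.12, adjusted p = 0.895, edgeR's quasi-likelihood test). Groups that did not overlap were seen for 1 of the 10 genes above, Selk, and 2 below, Gpx4 and Sepw1. Among all genes tested, 7.94% had all starved libraries above the unstarved ones and 4.89% had them below.

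Sepp1 rose. It encodes selenoprotein P, the secreted carrier that brings selenium from liver to other tissues and holds most of the selenium of plasma. Its level was 1.71, 3.15 and 10.6 CPM in unstarved and 3.48, 15.5 and 22.4 CPM in starved cells. Starved cells held more in each passage, although the groups overlapped because the level also differed between passages in both conditions. The log2 fold change was 1.41 (SE 0.29, adjusted p = 0.0383, edgeR's quasi-likelihood test). The adjusted p was 0.0853 without passage 26 and 0.0931 without passage 27. An exon of Ccdc152 overlaps Sepp1 on the opposite strand, and the counting used strand.

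Markers of other cell types differed between the conditions as well. Summed over 9 fibroblast genes, the level was 815, 1824 and 2583 CPM in unstarved and 2079.6, 5507 and 6614 CPM in starved cells, and 6 of the 8 tested rose. The share of all genes that rose was 3.48%. Dpt, among the 6, had 0, 3 and 0 counts in unstarved and 60, 166 and 76 counts in starved cells. It passed the filter through its starved libraries. With at least 10 counts in every library, 5 of the 7 tested rose. The fibroblast sum, like Sepp1, was higher in starved cells of each passage. None of the 9 was at 0 in all 6 libraries, and Col1a2 was the highest. The 9 skeletal muscle genes summed to 84.4, 202 and 81.3 CPM in unstarved and 57.5, 746 and 268 CPM in starved cells, with 5 of the 8 tested higher and Myf5 at 0. The muscle sum was lower in starved cells of passage 24, where Sepp1 was higher. In that passage Myod1 stood at 38.9 CPM in unstarved and 8.68 CPM in starved cells. However, 6 of the 8 tested muscle genes were higher in each passage, beside 27.6% of all genes. The 10 genes of macrophages, a cell type rich in Sepp1, summed to 16.8, 5.30 and 2.92 CPM in unstarved and 4.84, 2.98 and 2.50 CPM in starved cells, and Emr1, C1qa and C1qb were at 0. The macrophage sum was lower in starved cells of each passage, and 1 of the 4 tested, Cx3cr1, fell, beside 1.60% of all genes. Cx3cr1 had 156, 51 and 12 counts in unstarved and 50, 5 and 3 counts in starved cells. No gene of the list passed without passage 26, without passage 27 or without the block. Cd68 alone stood at 13.5, 4.05 and 2.13 CPM in unstarved cells. Aif1 and Itgam were higher in starved cells of 2 passages and Mrc1 in each, with Itgam at 11 and Mrc1 at 28 counts over 6 libraries. The 8 Müller glia genes, of which Vim was the highest, summed to 4294, 2864 and 2092 CPM in unstarved and 3255, 1940.2 and 2149 CPM in starved cells, with Aqp4 at 0. Of the 7 tested, 2 rose and 0 fell with edgeR, while DESeq2 with the block called 2 higher and 1 lower. In each passage 4 were higher and 2 lower. The 2 lower ones were Vim (−0.55) and Rlbp1 (−0.75), which did not pass with edgeR. Slc1a3 was at 6.56, 15.1 and 22 CPM in unstarved and 22, 189 and 193 CPM in starved cells. It rose by 2.81 on the log2 scale (adjusted p = 0.00732, edgeR's quasi-likelihood test), and Dkk3 rose by 1.19 (adjusted p = 0.0157, edgeR's quasi-likelihood test). Cx3cr1, Slc1a3, Dkk3, Rlbp1, Dpt, Cd68, Aif1, Itgam, Mrc1, Myod1 and the changes of Vim and Pparg were singled out after their values were seen. Of 6 liver and kidney genes only Lrp2 averaged above 1 CPM. The 8 retinal pigment epithelium genes summed to 1.39, 1.25 and 2.70 CPM in unstarved and 2.72, 4.35 and 3.83 CPM in starved cells. Their sum was higher in each passage, as Sepp1 was, and 0 of the 2 tested passed with edgeR. Of 2 adipocyte genes tested, Pparg fell by 0.87 on the log2 scale (adjusted p = 0.0497, edgeR's quasi-likelihood test). With any 1 passage left out, 0 of these 2 passed. The part of these genes in the rise of Sepp1 was not tested.

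Sephs2 encodes the synthetase that makes selenophosphate, the selenium donor for selenocysteine, and is itself a selenoprotein. It was at 49.2, 34.3 and 36.8 CPM in unstarved and 49.8, 34.5 and 28.2 CPM in starved cells. The values of passages 24 and 26 were nearly the same in both conditions, and the log2 fold change was −0.17 (SE 0.14, adjusted p = 0.487, edgeR's quasi-likelihood test).

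The order of the genes was set on CPM per kilobase of merged exons, so that levels could be compared between genes. In unstarved cells Sepw1 (113 ± 28.8, SD, n = 3), Gpx4 (112 ± 2.17) and Gpx1 (110.1 ± 7.73 CPM per kilobase) were highest and did not differ beyond their spread. This tie rested on the length used: with the longest transcript of each gene, the means over all 6 libraries were 164 for Gpx4, 124 for Gpx1 and 91.8 CPM per kilobase for Sepw1, against 94.9, 92.1 and 91.8 with merged exons, and Txnrd1 was at 53.0 against 27.1. Selm (37.9 ± 13.7), Txnrd1 (29.1 ± 7.84) and Selk (25.1 ± 4.01) came next with overlapping ranges, followed by Sephs2 (18.4 ± 3.67). Txnrd2 (3.05 ± 0.275) overlapped Sepp1 (1.81 ± 1.67), and Gpx3 was lowest at 0.112 ± 0.0490. In starved cells the same 3 genes led, with Gpx4 at 77.4 ± 1.47, Gpx1 at 74.1 ± 28.2 and Sepw1 at 70.4 ± 14.1 CPM per kilobase. Selk (38.7 ± 3.26) then stood above Txnrd1 (25.1 ± 4.91), and Sepp1 (4.86 ± 3.37) was placed above Txnrd2 (2.99 ± 0.308) with overlapping ranges. The order of Selk and Txnrd1 also depended on the length used. Over all 6 libraries they averaged 36.0 and 53.0 CPM per kilobase with the longest transcript, against 31.9 and 27.1 with merged exons. Summed over the 10 genes, the level was 869, 735 and 809.8 CPM in unstarved and 758, 584 and 657 CPM in starved cells, lower in each passage with overlapping groups.

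**Figure D2:**
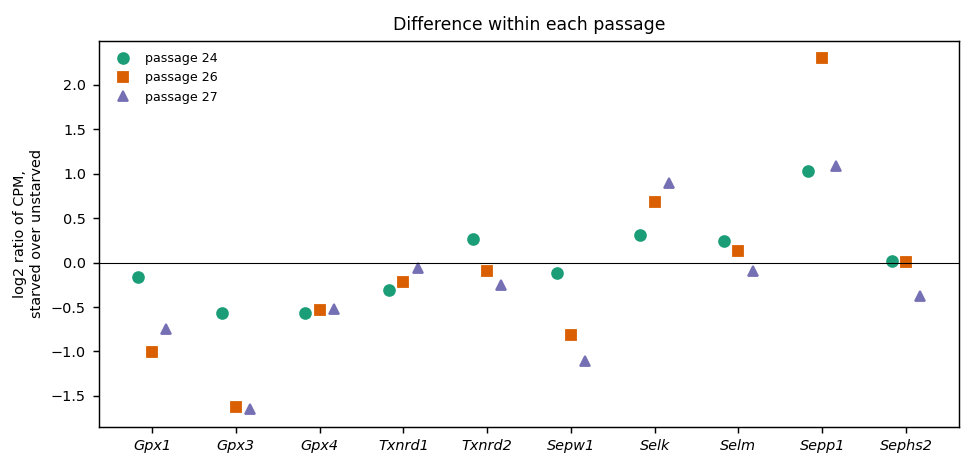
Log2 ratio of CPM, starved over unstarved, within passages 24, 26 and 27 for each of the 10 genes. Gpx4 has nearly the same ratio in each passage (−0.56, −0.54 and −0.52), whereas the ratios of Gpx1 and Sepw1 are close to 0 in passage 24 and far below it in passages 26 and 27.

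The size of the differences varied between passages. In passage 24, 5 of the 10 genes were lower in starved cells, in passage 26 it was 6, and in passage 27 it was 8. The median size of the log2 ratio, whatever its sign, was 0.28 in passage 24, 0.61 in passage 26 and 0.63 in passage 27 over the 10 genes, beside 0.25, 0.39 and 0.31 over all genes tested. Gpx4 changed by nearly the same ratio in each passage, at log2 ratios of −0.56, −0.54 and −0.52. Gpx1 was at −0.16, −1.01 and −0.74, and Sepw1 at −0.12, −0.81 and −1.10. Of the 10 genes, 2 were higher and 5 lower in each passage, beside 27.6% and 19.3% of all genes. With 1 pair per passage the difference between passages could not be tested.

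The table named 12 further selenoprotein genes. Gpx2 had no count in any library, Dio1 and Dio3 were at or below 0.0524 CPM and were not tested, and of the 9 tested 1 rose. That gene was Dio2, the deiodinase that turns thyroxine into the active thyroid hormone, at 4.29, 3.71 and 2.36 CPM in unstarved and 9.66, 53.0 and 19.3 CPM in starved cells. All starved libraries lay above all unstarved ones, with a log2 fold change of 2.65 (SE 0.48, adjusted p = 0.0290, edgeR's quasi-likelihood test). Without passage 27 the adjusted p was 0.111. The muscle sum given above was lower in starved cells of passage 24, as was Myod1, and higher in those of passages 26 and 27. Of the 8 tested muscle genes, 6 were higher in each passage, as was Dio2, and their part was not tested. Of the 9, 0 fell with edgeR, 3 were lower at an unadjusted p under 0.05, and DESeq2 with the block called 2 lower. Among all genes, 1.60% fell with edgeR, 11.1% were lower at that unadjusted level, and DESeq2 called 12.4% in either direction.

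The gene listed as 2700094K13Rik, now Selenoh, was at 60.1, 55.4 and 66.4 CPM in unstarved and 50.2, 30.4 and 45.4 CPM in starved cells. Its groups did not overlap, and the log2 fold change of −0.61 (SE 0.15) was just outside the threshold (adjusted p = 0.0593, edgeR's quasi-likelihood test). Sepn1, a protein of the endoplasmic reticulum needed in muscle, was lower in each passage, at −0.52 on the log2 scale (adjusted p = 0.0749, edgeR's quasi-likelihood test). Selt and Ept1 were lower in each starved library than in any unstarved one, with log2 fold changes of −0.47 and −0.22 that did not pass. For Vimp, which acts in the removal of misfolded proteins from the endoplasmic reticulum, the value was 0.53 on that scale (adjusted p = 0.156, edgeR's quasi-likelihood test). Txnrd3, Selo and Msrb1 had log2 fold changes of −0.37, −0.10 and −0.07, and none passed. Over all 19 selenoprotein genes tested, 2 rose and 1 fell, beside 3.48% and 1.60% of all genes, and the median log2 fold change was −0.22. Of these 19, 4 were higher and 9 lower in each passage, beside 27.6% and 19.3% of all genes.

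**Figure D3:**
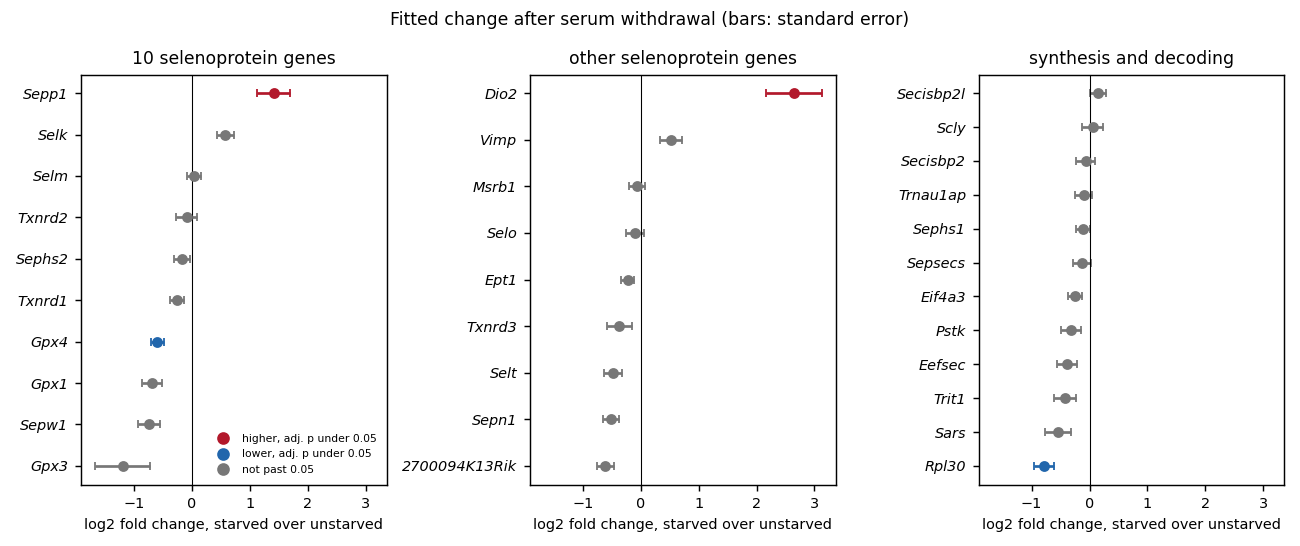
Log2 fold change, starved over unstarved, with its standard error for the 10 genes (left), the 9 other selenoprotein genes tested (middle) and the 12 genes of selenocysteine synthesis and decoding (right). Red and blue points passed an adjusted p under 0.05: Sepp1 and Dio2 were higher, Gpx4 and Rpl30 lower, and the gray points did not pass.

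Of 12 genes of the machinery that makes and inserts selenocysteine, 1 fell and 0 rose with edgeR, 2 were lower and 0 higher by an unadjusted p under 0.05, and the median log2 fold change was −0.19. Among all genes, 1.60% fell and 3.48% rose with edgeR, and 11.1% were lower and 13.1% higher at that unadjusted level. The gene of this list that fell was Rpl30, which encodes a ribosomal protein that also binds the SECIS element. It was at 281, 277 and 242 CPM in unstarved and 237, 130.4 and 134 CPM in starved cells, with a log2 fold change of −0.79 (SE 0.18, adjusted p = 0.0489, edgeR's quasi-likelihood test). The call was lost without passage 26 (0.142), without passage 27 (0.181), on library totals (0.0566) and with the stricter filter (0.0526).

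Secisbp2, the SECIS-binding protein, was at 20.8, 21 and 15.5 CPM in unstarved and 19.4, 19.0 and 18.0 CPM in starved cells, a log2 fold change of −0.07 (SE 0.16). Its paralog Secisbp2l stood at 0.15. For Eefsec, the elongation factor of the selenocysteine tRNA, the log2 fold change was −0.39 (adjusted p = 0.228, edgeR's quasi-likelihood test). Of the enzymes that charge and convert that tRNA, Sars (−0.54), Pstk (−0.32) and Sepsecs (−0.13) did not pass, nor did Trit1 (−0.43), which modifies it, and Trnau1ap (−0.10), a protein bound to it. Sephs1 (−0.11), the paralog of Sephs2 that lacks selenocysteine, Scly (0.05), the lyase that recovers selenium, and Eif4a3 (−0.25), which in rodent cells binds selenoprotein messengers when selenium is low, did not pass either.

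Of 4 genes of selenium uptake and binding tested, 0 passed with edgeR, 1 had an unadjusted p under 0.05, and DESeq2 with the block called 1. The shares of all genes were 5.07%, 24.3% and 12.4%. Lrp8, the receptor that takes up selenoprotein P in brain and testis, was at 68.8, 41.3 and 22.6 CPM in unstarved and 82.1, 65.6 and 43.0 CPM in starved cells. It was higher in each passage, with a log2 fold change of 0.56 (SE 0.16, adjusted p = 0.0829, edgeR's quasi-likelihood test). Lrp2, or megalin, the kidney receptor for the same protein, had a log2 fold change of −0.14, and Lrp1 had 0.17. Selenbp1 had 0.58 (SE 0.70), but only 0, 10 and 32 counts in unstarved and 10, 16 and 28 counts in starved cells. It was lower in starved cells of passage 27.

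Among 16 cysteine-based homologs and thioredoxin partners, most of which work without selenium, 1 rose and 1 fell with edgeR. At an unadjusted p under 0.05 there were 4 higher and 6 lower, and DESeq2 with the block called 1 higher and 4 lower. Among all genes, 3.48% rose and 1.60% fell with edgeR, and 13.1% were higher and 11.1% lower at that unadjusted level. DESeq2 with the block called 12.4% of all genes. Gpx7, a glutathione peroxidase of the endoplasmic reticulum with cysteine in place of selenocysteine, was at 17.4, 13.6 and 15.8 CPM in unstarved and 29.1, 21.1 and 30.2 CPM in starved cells. Its log2 fold change was 0.72 (SE 0.15, adjusted p = 0.0442, edgeR's quasi-likelihood test). Prdx3, the mitochondrial peroxiredoxin, was at 109, 138 and 98.3 CPM in unstarved and 88.2, 73.7 and 60.5 CPM in starved cells, a log2 fold change of −0.69 (SE 0.14, adjusted p = 0.0419, edgeR's quasi-likelihood test). For both, the groups did not overlap. Gpx7 did not pass without passage 24 (0.0619), 26 (0.0671) or 27 (0.163), and Prdx3 did not pass without passage 26 (0.148) or 27 (0.159). Prdx6 (−0.50) and Txn2 (−0.45) did not pass.

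Of 18 genes of glutathione synthesis and use, 2 rose and 0 fell with edgeR, with 5 higher and 1 lower by an unadjusted p under 0.05, and DESeq2 with the block called 4 higher and 0 lower. For this list and the NRF2 targets below, the shares of all genes were 3.48% and 1.60% with edgeR. They were 13.1% and 11.1% at the unadjusted level, and 12.4% in either direction with DESeq2. Gstm1, a glutathione transferase, was at 23.4, 14.2 and 28.1 CPM in unstarved and 59.1, 44.9 and 56.7 CPM in starved cells. Its log2 fold change was 1.28 (SE 0.16, adjusted p = 0.00799, edgeR's quasi-likelihood test), and it passed at 0.05 without any 1 passage. Gstm2, a transferase of the same family, rose by 1.08 on the log2 scale (SE 0.21, adjusted p = 0.0361, edgeR's quasi-likelihood test), but did not pass without passage 26 (0.0712) or 27 (0.132). The Gstm genes are close copies, and their shared reads are uncertain. Ggt7 (0.90) and Mgst1 (0.65) did not pass. Of 16 targets of NRF2, the transcription factor of the oxidative stress response, 0 passed with edgeR, while at an unadjusted p under 0.05 there were 2 higher and 2 lower. DESeq2 with the passage as a block called 1 of the 16. Nqo1, at 27.5, 13.2 and 22.2 CPM in unstarved and 41.8, 44.1 and 32.1 CPM in starved cells, had the smallest p among them (log2 fold change 0.89, adjusted p = 0.0803, edgeR's quasi-likelihood test), followed by Me1 (0.36), Taldo1 (−0.34) and Srxn1 (−0.30).

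Of 10 genes of lipid peroxidation and ferroptosis tested, Acsl4 rose and 0 fell with edgeR, 2 were higher and 2 lower by an unadjusted p under 0.05, and DESeq2 with the block called 1 higher. Among all genes, 3.48% rose and 1.60% fell with edgeR, 13.1% were higher and 11.1% lower at that unadjusted level, and DESeq2 called 12.4%. Acsl4 encodes an enzyme that activates polyunsaturated fatty acids for their loading into membrane lipids, which Gpx4 protects. Acsl4 was at 91.6, 109 and 94.3 CPM in unstarved and 126, 207 and 145 CPM in starved cells, with a log2 fold change of 0.61 (SE 0.13, adjusted p = 0.0441, edgeR's quasi-likelihood test). It did not pass without passage 26 (0.159) or 27 (0.145). Lpcat3 (0.52), Alox5 (−0.99) and Dhodh (−0.45) did not pass. Of 4 further peroxide and superoxide enzymes, Sod3 (−0.47), Cat (0.28), Sod2 (−0.05) and Sod1 (0.03), 0 passed with edgeR or DESeq2, and 1 was higher and 1 lower by an unadjusted p under 0.05. Of 15 factors of nonsense-mediated decay, 0 passed, 0 did so at an unadjusted p under 0.05 (edgeR), and their log2 fold changes lay between −0.29 and 0.05. DESeq2 with the block also called 0 of the 15.

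The place of the selenocysteine codon was set beside these values as a description. In 10 tested genes the codon lay more than 50 bases before the last exon junction, the distance usually given for nonsense-mediated decay. These were Gpx1, Gpx3, Gpx4, Sepw1, Sepp1, Selm, Txnrd2, 2700094K13Rik, Sepn1 and Selt. Their median log2 fold change was −0.56, and 7 of the 10 were lower in starved cells of each passage, beside 19.3% of all genes tested. At an adjusted p under 0.05, 1 of the 10, Gpx4, fell and 1, Sepp1, rose (edgeR), beside 1.60% and 3.48% of all genes. The 7 that were lower in each passage were also lower at an unadjusted p under 0.05 (edgeR), beside 11.1% of all genes. Among these 7 was Gpx3, whose few counts leave its direction unresolved. Without it the median was −0.52, and 6 of 9 were lower in each passage. Sepp1 rose instead, and Selm (0.03) and Txnrd2 (−0.09) lay near 0. Another 8 tested genes, Selk and Txnrd1 among them, had the codon nearer to that junction or after it. Their median was −0.08 and the range −0.37 to 2.65. Of these 8, 2 were lower and 3 higher in each passage, beside 19.3% and 27.6% of all genes. At an unadjusted p under 0.05, 0 were lower and 3 higher (edgeR), beside 11.1% and 13.1% of all genes. After adjustment, 0 of the 8 fell and 1, Dio2, rose. By passage, the medians of the log2 ratios were −0.21, −0.54 and −0.45 for the first set and 0.24, −0.11 and −0.04 for the second. Sephs2 is encoded in a single exon and belongs to neither. The difference between the sets was not tested.

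**Figure D4:**
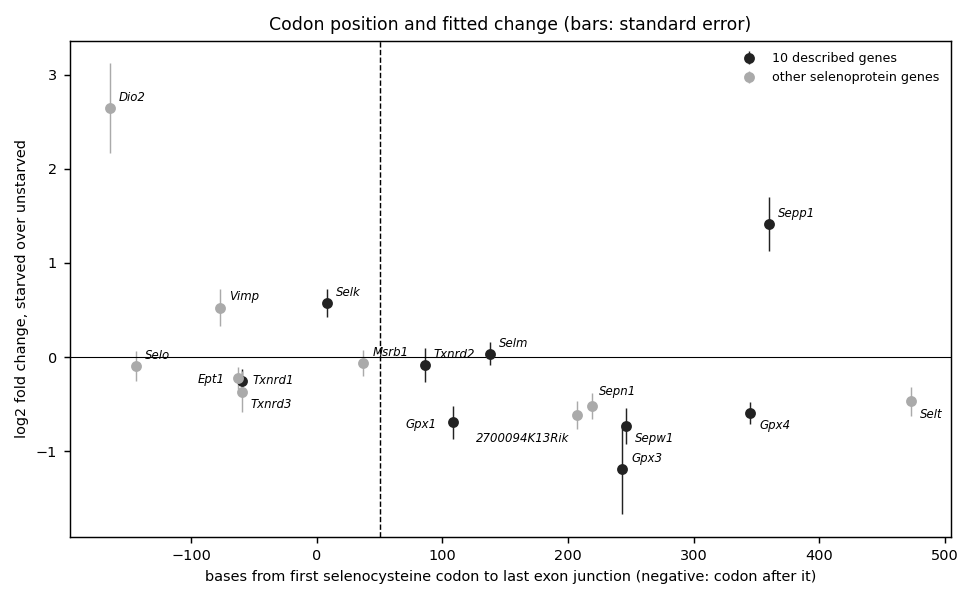
Log2 fold change, starved over unstarved, with its standard error, against the number of bases from the first selenocysteine codon to the last exon junction, for 18 selenoprotein genes. The dashed line marks 50 bases before the junction. To its right 7 of 10 genes lie at −0.47 or below, with Sepp1 at 1.41, and to its left Dio2, Selk and Vimp lie above 0.5.

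The genes whose levels followed Gpx4 most closely over the 6 libraries, among 9639 tested genes with a mean of at least 10 CPM, were Ugdh (Pearson's r of log2 CPM 0.981), Dlg5 (0.981), Map2k4 (0.978), Ipo7 (0.978) and Vasp (0.975). Ugdh, an enzyme that makes UDP-glucuronic acid, averaged 353 CPM in unstarved and 211 CPM in starved cells, a log2 fold change of −0.80 (adjusted p = 0.0175, edgeR's quasi-likelihood test). Ipo7, an import receptor of the nucleus, and Vasp, which promotes actin growth, fell by 0.56 and 0.56 on the log2 scale (adjusted p = 0.0378 and 0.0386, edgeR's quasi-likelihood test). Dlg5 (−0.36) and Map2k4 (−0.27) did not pass. These correlations describe 6 libraries that fall into 2 conditions, and carry no test.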

How the data were processed

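The authors prepared polyA-selected, stranded libraries, sequenced 75-base single reads over 4 lanes, aligned them with STAR to GRCm38 (mm10) and assigned them to genes with HTSeq (union mode, reverse strand). Software versions are not stated there. The deposited counts were used as they were, without normalization by the authors. A second deposited table holds the authors' DESeq2 comparison (fold changes, statistics and p-values) and was not used.

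Of 38803 genes, 27 whose names had become dates (formerly Sep15 among them; 0.223% to 0.301% of counts) were left out. After filterByExpr, 16168 genes were tested with edgeR's quasi-likelihood test on TMM-normalized counts (biological coefficient of variation 0.200), with the passage as a block and Benjamini-Hochberg adjustment. The pairs come from the labels, which give each passage in both conditions. After condition means were removed, libraries of the same passage correlated at 0.675, 0.273 and 0.605. All passages are of 1 line. With the passage as a block, p-values measure how the difference between starved and unstarved cells varies between passages, with dispersion partly shared across genes.

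Alternatives were no block, DESeq2 (also with no block), limma-voom, other scalings (RLE or library totals), other filters (none, or at least 10 counts in every library), leaving out each passage, and, for levels per kilobase, the longest transcript. Leaving Gpx3 out of the early-codon genes was added after the data had been seen. The genes and gene lists were chosen with earlier results of these data known. Genes named are all selenoprotein and decoding genes in the table, up to 4 of each other list with the smallest p, and the 5 most like Gpx4. Exon lengths and codons came from GENCODE M21 (GRCm38), in which all 190 list genes in the table were matched. The test was tried on simulated data. Tools were matplotlib 3.10.9, pandas 2.3.3, Python 3.11.15, limma 3.58.1, DESeq2 1.42.0, edgeR 4.0.16 and R 4.3.3.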

Additional observations from a re-analysis of the deposited data

How the results depend on the processing

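The signs of the fold changes held better than the calls. Of 63 named genes, none that passed in either setting changed sign in any of the 11 alternatives, and of 689 values 43 lost and 33 gained the call; among the 10 genes, Selm and Txnrd2, near 0, changed sign in 1 alternative each. The main model had the passage as a block. Without the replicate block, edgeR called 0 of the 10 selenoprotein genes in place of 2, 0 of the other selenoprotein genes in place of 1, 0 decoding genes in place of 1 and 0 genes of the redox, glutathione, NRF2, ferroptosis, decay and uptake lists in place of 5, and 4 genes in all in place of 820. DESeq2 with the block called 5, 3 and, in the last group, 12, and 2011 genes in all; without the block it called 1 of the 10 genes, 0 decoding genes and 2 of the last group. With no filter the counts were 5 of the 10 genes, 3 of the other selenoprotein genes and 10 of the last group. The decoding count was 0 on library totals and 0 with at least 10 counts in every library. Leaving out 1 passage gave 0 to 5 of the 10 genes, 0 to 2 other selenoprotein genes, 0 to 2 decoding genes and 1 to 8 of the last group, with the highest count each time without passage 24 and the lowest without passage 27, shared with passage 26 except for the other selenoprotein genes. The median over the 10 genes stayed between −0.22 and −0.16. With the longest transcript as length, 5 of the 10 genes kept their place in the order of levels, so that order is limited by the annotation. With 3 pairs and Gpx3 at 69 counts over 6 libraries, small changes and Gpx3 were not resolved.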
